A study of Mus musculus with 6 samples.

Results

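The cytosolic glutathione S-transferases of the alpha and mu classes were followed in small intestinal crypts of mice with and without CSN8 in the intestinal epithelium. All genes whose platform symbol is Gsta or Gstm followed by a digit were taken, which gave 10 of the 19505 genes tested, 3 of the alpha class (Gsta2, Gsta3 and Gsta4) and 7 of the mu class (Gstm1 to Gstm7), each read by 1 probe set. The family was chosen by the genotype differences measured on these arrays, since Gsta3, Gsta2 and Gstm1 were already known to stand among the largest increases in CSN8ΔIEC crypts. The genotype differences of all 10 genes are therefore given as a description, with their errors and without p-values. Gsta1 was not analysed here.

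Glutathione S-transferases are dimeric enzymes that join the tripeptide glutathione to electrophilic compounds, and the conjugates then leave the cell through ABC exporters. Alpha class enzymes act on lipid hydroperoxides and on aldehydes formed by lipid peroxidation, and mu class enzymes act on epoxides, quinones and aromatic halides. Many of their genes are known targets of the transcription factor NRF2, which binds the antioxidant response element and is held low by a cullin-RING ubiquitin ligase built on CUL3 and KEAP1. CSN8 belongs to the COP9 signalosome, a complex known for cleaving the modifier NEDD8 off cullins.

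Villi were scraped away, crypts were loosened with EDTA, and their total RNA was hybridised to Affymetrix arrays, 1 array per sample. CSN8fl/fl mice, which carry a floxed Cops8 gene, and CSN8ΔIEC mice, taken from the genotype's name to lack it in intestinal epithelial cells, gave 3 samples each on a C57bl/6 background. In both genotypes replicates 1 and 2 were labelled female and 16 weeks old, and replicate 3 was labelled male and 10 weeks old. The labels call the samples biological replicates. The sources used here name neither the Cre driver nor a separate mouse for each sample, so each p-value reflects no more than the scatter of these samples, which may be partly technical. The sex labels go against the Y-linked genes. Eif2s3y was at 4.06 and 2.81 in the libraries labelled male and between 9.61 and 10.10 in those labelled female, and Kdm5d and Uty showed the same order. Labelled sex and age changed together and were balanced over the genotypes. CSN8fl/fl replicate 3 was the array least like the others (r across genes 0.976 to 0.986, against 0.986 to 0.993 among the rest). Cops8 was lower in every CSN8ΔIEC array (8.10 to 8.26 against 7.61 to 7.77), with a difference of −0.50 ± 0.11 that did not pass the threshold (limma, adjusted p = 0.0865; range over alternatives 0.0464 to 0.293). The sources used here do not say whether its probes lie in the deleted part. Crypt markers were present in both genotypes, with Lgr5, the stem cell receptor, between 8.05 and 8.63 and Lyz1, the Paneth cell lysozyme, between 12.41 and 13.66. Villus enterocyte genes were present as well, with Apoa4 between 13.18 and 13.79. All values are log2 probe set signals, and differences are CSN8ΔIEC minus CSN8fl/fl on that scale ± SE. Probe sets differ in response, so a higher signal in one gene than in another does not show more of its RNA. The summed levels, the percentile cut and the highest mean of a list, given below, do set signals of different genes together. They carry this limit, and genes with high signals weigh most in the sums. The number of arrays limits the precision.

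Since most members were higher together, the sequence before their transcription starts was searched for the core of the antioxidant response element, TGACNNNGC, and for the core of the xenobiotic response element bound by the aryl hydrocarbon receptor, GCGTG, on both strands. RefSeq windows of the GRCm38.p6 build, from 250 bases before to 50 bases after a start, were matched by gene ID for 9 of the 10 genes, with 14 windows because some genes have several starts. Gsta4 had no window. TGACNNNGC was found in 3 of the 14 windows (21.4%) and in 12.4% of all 32851 windows, and GCGTG in 4 of the 14 (28.6%) and in 32.4% of all windows. The stretches below are those that hold a match to TGACNNNGC, for Gsta3, Gstm5 and Gstm7, and those of Gsta2 and Gstm1, the other members with a match to GCGTG. Matched letters are in capitals and all run 5′ to 3′ on the gene's strand.
Gsta3, chr1:21240435-21240564, plus strand: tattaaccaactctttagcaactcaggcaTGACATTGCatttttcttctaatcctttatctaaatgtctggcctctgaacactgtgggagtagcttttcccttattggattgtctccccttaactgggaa
Gstm5, chr3:107895704-107895853, plus strand: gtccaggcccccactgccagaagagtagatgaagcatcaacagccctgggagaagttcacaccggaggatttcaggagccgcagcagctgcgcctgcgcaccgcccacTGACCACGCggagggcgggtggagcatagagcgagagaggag
Gstm7, chr3:107931724-107931753, minus strand: tctgaagaccTGACAAAGCgaagccaatcc
Gstm1, chr3:108017974-108018123, minus strand: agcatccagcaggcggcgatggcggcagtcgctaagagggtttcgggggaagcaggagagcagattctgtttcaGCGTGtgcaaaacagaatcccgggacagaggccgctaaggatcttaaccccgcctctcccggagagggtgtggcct
Gsta2, chr9:78347135-78347164, minus strand: cttactaaagtaGCGTGcacactcctctgg

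The match in Gsta3 began 121 bases before the start, that in Gstm5 42 bases before it and that in Gstm7 129 bases before the more downstream of its annotated starts. In Gstm5 the element overlaps a match to GCGTG on the opposite strand, and a further match on that strand lies 171 bases before the start. Both Gstm1 windows hold the same GCGTG. The 3 genes with TGACNNNGC are the member with the largest genotype difference (Gsta3) and those with the smallest differences (Gstm5 and Gstm7), as given next. No match in a window says only that these letters are not in it.

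All 10 genes had a higher mean signal in CSN8ΔIEC crypts, with a median difference of 1.44 against −0.011 over all genes. In 8 of them, all 3 of the alpha class and 5 of the 7 of the mu class, the 3 CSN8ΔIEC arrays all lay above the 3 CSN8fl/fl arrays, an order found in 10.7% of all genes, with 22.4% of all genes not overlapping in either direction. The same 8 were past the adjusted p threshold of 0.05 in the genotype fit, where 0.374% of all genes were past it in this direction and 0.702% in the other. Because this contrast drew attention to the family, nothing is read from these counts. The median was 1.84 for the alpha class and 1.28 for the mu class. All 10 genes had mean signals above the 40th percentile of all genes.

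Gsta3 (NCBI gene ID 14859), whose enzyme is known for conjugating the epoxide of aflatoxin B1, had the largest difference of the 10. It was at 8.02, 9.64 and 7.01 in CSN8fl/fl replicates 1 to 3 and at 12.20, 11.83 and 11.87 in CSN8ΔIEC. The groups were 2.20 apart at their nearest arrays, and the CSN8fl/fl values were widely spread (SD 1.32, n = 3) where the CSN8ΔIEC values were close (SD 0.20, n = 3). The difference of 3.74 ± 0.53 equals 13.4-fold. Leaving out the highest control array, replicate 2, gave a difference of 4.45, and leaving out the lowest, replicate 3, gave 3.14.

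Gsta2 (gene ID 14858) encodes an alpha class subunit known to be induced by phenolic antioxidants. Its signals were 9.22, 10.54 and 10.05 in CSN8fl/fl and 11.84, 11.83 and 11.67 in CSN8ΔIEC. The CSN8ΔIEC arrays were nearly equal and all lay above the highest control, and the difference was 1.84 ± 0.28, or 3.58-fold. Gsta4 (gene ID 14860), whose enzyme is known for its preference for hydroxynonenal, a product of lipid peroxidation, was at 8.96, 8.82 and 8.39 in CSN8fl/fl and at 10.56, 9.96 and 9.99 in CSN8ΔIEC. The groups did not overlap, and the difference was 1.45 ± 0.20, or 2.73-fold. Unlike Gsta2 and Gsta3, Gsta4 was not highest in replicate 2 among the controls.

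Gstm1 (gene ID 14862), the main mu class subunit of mouse liver, had the largest difference of its class. It was at 10.76, 11.64 and 10.75 in CSN8fl/fl and at 13.07, 12.83 and 12.75 in CSN8ΔIEC. The groups did not overlap, and the difference was 1.83 ± 0.23, or 3.56-fold. Gstm3 (gene ID 14864), known as inducible by NRF2 activators in mouse liver, was at 11.01, 11.91 and 11.21 in CSN8fl/fl and at 12.93, 12.79 and 12.71 in CSN8ΔIEC. Its difference was 1.43 ± 0.22, or 2.70-fold, again with no overlap.

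Gstm4 (gene ID 14865) was at 7.94, 8.82 and 8.19 in CSN8fl/fl and at 10.03, 9.84 and 9.46 in CSN8ΔIEC, a difference of 1.46 ± 0.23 or 2.76-fold. Gstm2 (gene ID 14863) was at 8.77, 9.07 and 8.84 in CSN8fl/fl and at 10.46, 10.00 and 10.06 in CSN8ΔIEC, a difference of 1.28 ± 0.15 or 2.43-fold. Gstm6 (gene ID 14867) was at 8.15, 8.46 and 8.54 in CSN8fl/fl and at 9.55, 9.32 and 9.23 in CSN8ΔIEC, a difference of 0.98 ± 0.15 or 1.97-fold. In each of these mu class genes every CSN8ΔIEC array lay above every control.

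Gstm5 and Gstm7 were the members whose genotypes overlapped. Gstm5 (gene ID 14866), a mu class gene known mainly from testis and brain, was at 7.60, 7.90 and 7.29 in CSN8fl/fl and at 7.91, 7.77 and 7.77 in CSN8ΔIEC. The second control array lay above CSN8ΔIEC replicates 2 and 3, and the difference was 0.22 ± 0.16. Gstm7 (gene ID 68312) was at 7.79, 8.20 and 7.87 in CSN8fl/fl and at 8.50, 8.18 and 8.34 in CSN8ΔIEC. The overlap was narrow, since only CSN8fl/fl replicate 2 reached above the lowest CSN8ΔIEC array, and the difference was 0.39 ± 0.15. The signals of Gstm5 and Gstm7 do not settle whether they were equal in the genotypes.

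**Figure D1:**
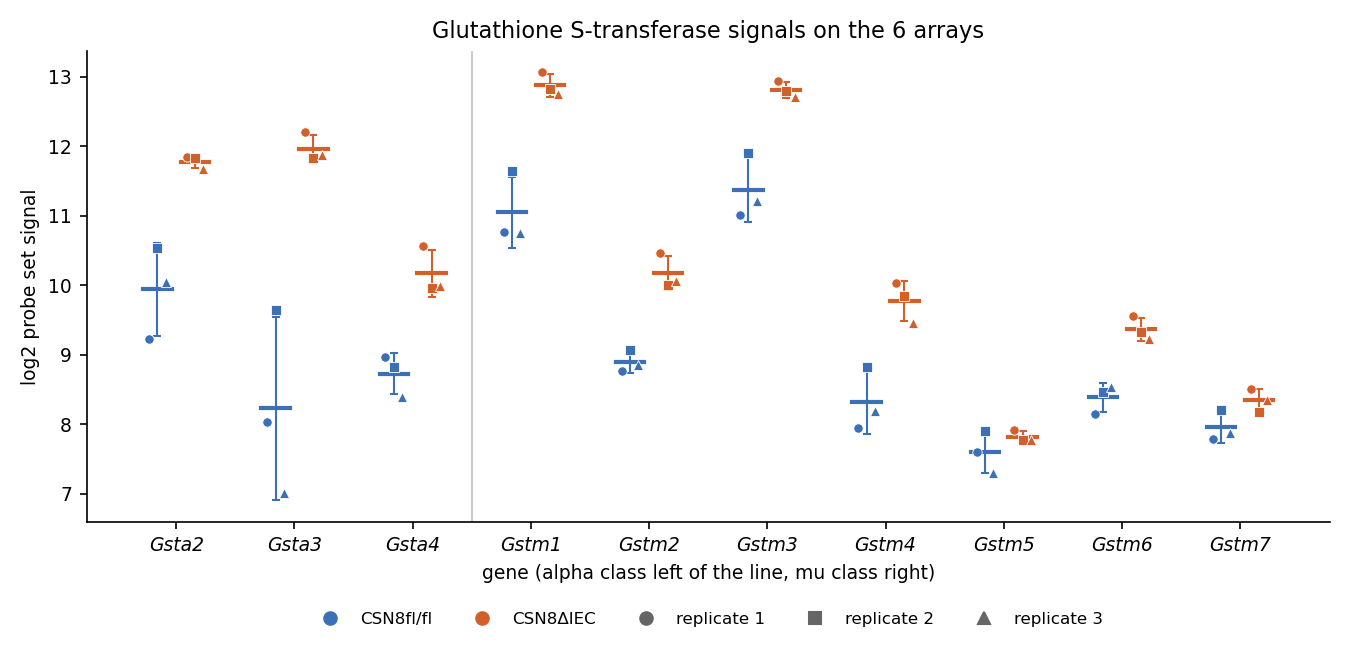
Log2 probe set signal of each of the 10 genes on each of the 6 arrays (blue, CSN8fl/fl; orange, CSN8ΔIEC; the marker gives the replicate), with the mean of 3 arrays as a bar and the SD as whiskers. In 8 genes every orange point lies above every blue point, and in Gstm5 and Gstm7 they overlap; heights are not comparable between genes.

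How many of the 8 stayed past the threshold rested on single arrays. Of the control arrays, omission of replicate 1 left 8 genes (1.17% of all genes past the threshold in either direction), that of replicate 2 left 7 (0.559%) and that of replicate 3 left 5 (0.774%). Of the CSN8ΔIEC arrays, omission of replicate 1 left only Gstm2 (1 gene, 0.21% of all genes), that of replicate 2 left 3 genes (0.625%) and that of replicate 3 left 4 (0.584%). Gstm2 was the member that stayed past the threshold in each of these omissions. Over these omissions the median of the 10 genes lay between 1.26 and 1.60, and between 8 and 10 genes had groups that did not overlap.

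Within each genotype most of the 10 genes were highest on the same array. CSN8fl/fl replicate 2 held the highest control signal in 8 of the 10, with Gsta4 and Gstm6 as the exceptions, and CSN8ΔIEC replicate 1 held the highest signal of its genotype in all 10. The share of all genes highest on these arrays was not computed, so the counts are not read as a trait of the family. Averaged over the 3 alpha class genes after centring each on its mean over the 6 arrays, the controls lay at −1.40, −0.47 and −1.65 and the CSN8ΔIEC arrays at 1.40, 1.07 and 1.04. The mu class followed with smaller steps, at −0.76, −0.20 and −0.67 in the controls and 0.73, 0.48 and 0.42 in CSN8ΔIEC. The SD was smaller in CSN8ΔIEC than in CSN8fl/fl for 8 of the 10 genes, as it was for 62.3% of all genes.

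Likeness between the genes, in which the size of the genotype difference counts, did not follow the classes. Measured as the root mean square distance between centred profiles over the 6 arrays, the closest pair was Gstm3 and Gstm4 (0.11), followed by the weakly differing Gstm5 and Gstm7 (0.15). Gsta2 was nearer to Gstm1 (0.25) than to Gsta4 (0.54), and Gsta4 was nearer to Gstm2 (0.21) than to either alpha class gene. Gsta3, which had the largest genotype difference, was at least 1.08 from each of the others. The profiles were not scaled, so genes with genotype differences of like size tend to lie near each other. Nothing further is read from these distances. The family's transcripts are related in sequence, and signal shared between probe sets was not separated.

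Genes outside the family were ranked by this distance, leaving out predicted genes (Gm10639 among them), accession-type and Rik symbols, microRNAs and snoRNAs. Among those ranked, the nearest to Gsta3 were Akr1b8, an aldo-keto reductase (0.26), Cbr3, a carbonyl reductase (0.26), and Plet1, a surface protein of epithelial progenitors (0.49). Akr1b8 went from 7.88, 8.82 and 6.99 in CSN8fl/fl to 12.04, 11.59 and 11.48 in CSN8ΔIEC, so its controls were ordered like those of Gsta3. The nearest to Gstm1 were Ephx1, microsomal epoxide hydrolase (0.20), the quinone reductase Nqo1 (0.21) and Tlr4, the receptor for lipopolysaccharide (0.21). Ephx1 was at 7.35, 7.80 and 7.44 in CSN8fl/fl and at 9.57, 9.03 and 9.02 in CSN8ΔIEC. Tlr4 was at 5.05, 6.06 and 5.37 in CSN8fl/fl and at 7.78, 6.90 and 7.07 in CSN8ΔIEC. These genes were picked for their profiles, the genotype difference included, so no test is given.

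**Figure D2:**
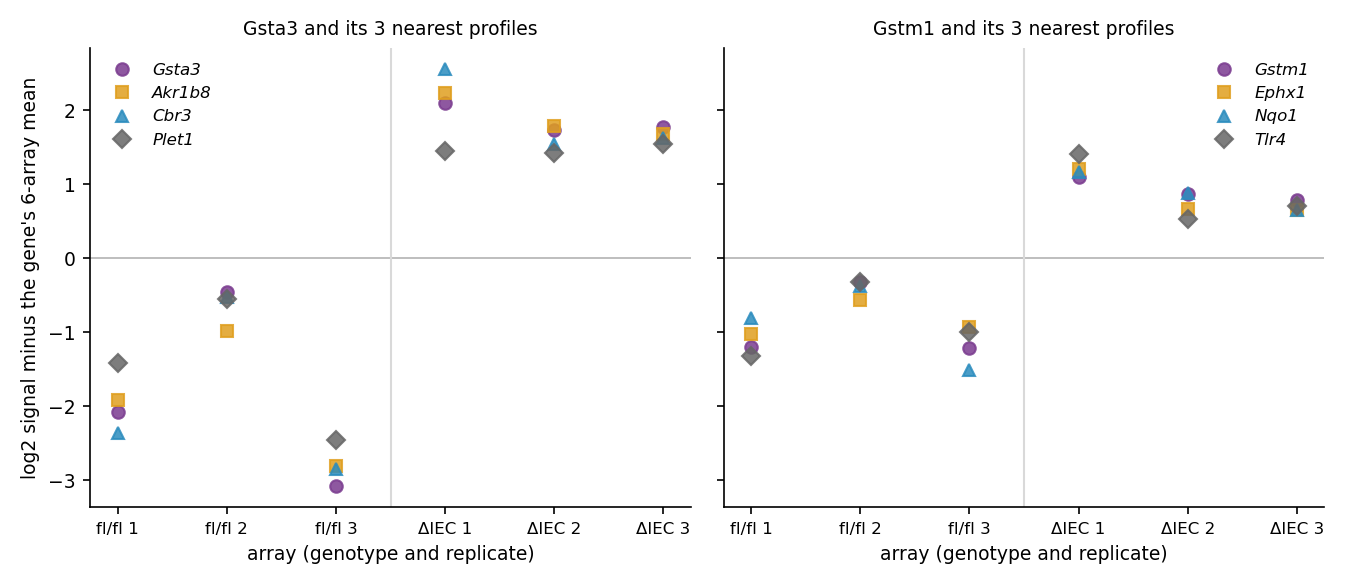
Log2 signal minus each gene's mean over the 6 arrays (y axis) by array (x axis) for Gsta3 with Akr1b8, Cbr3 and Plet1 (left) and for Gstm1 with Ephx1, Nqo1 and Tlr4 (right). In both panels CSN8fl/fl replicate 2 is the highest control for all 4 genes and all CSN8ΔIEC points lie above 0.

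The genes lie at 3 places in the genome, which RefSeq's order of genes allows to be compared with their neighbours. This comparison was added after the values had been seen. The mu class forms a single row on chromosome 3. In RefSeq's order, its differences were 0.22 for Gstm5, 0.39 for Gstm7, 0.98 for Gstm6, 1.43 for Gstm3, 1.28 for Gstm2, 1.83 for Gstm1 and 1.46 for Gstm4. The members with overlapping genotypes thus sit side by side at an end of the row. The 3 nearest measured genes on either side, from Ahcyl1 to Eps8l3 and from Ampd2 to Gnai3, had differences between −0.45 and 0.45, and 0 of these 6 passed the threshold in limma, with Csf1 and Gnat2 at an unadjusted p under 0.05.

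On chromosome 9 Gsta4 and Gsta2 enclose Gm10639, a predicted protein-coding gene, and the oocyte genes Omt2a and Omt2b. Members were taken by symbol, so whether Gm10639 is itself an alpha class gene was not examined. Signal shared between its probe set and those of the members was not separated. Gm10639 was at 7.02, 8.35 and 7.75 in CSN8fl/fl and at 9.50, 9.50 and 9.31 in CSN8ΔIEC. It rose 3.32-fold (1.73 ± 0.28, limma adjusted p = 0.028), but did not pass without CSN8fl/fl replicate 3 or any 1 CSN8ΔIEC array (adjusted p from 0.0781 to 0.124; range over all alternatives 0.011 to 0.124). Omt2a and Omt2b lay between 2.68 and 3.14 on all arrays, with differences of −0.13 and −0.026. Of the 6 genes flanking the chromosome 9 group, 0 passed the threshold, with differences from −0.45 to 0.58; C920006O11Rik and Ddx43 had an unadjusted p under 0.05. Gsta3 stands without other members on chromosome 1. Of its 6 neighbours 1 passed, Paqr8, a membrane progestin receptor, which rose 3.40-fold (1.77 ± 0.28, limma adjusted p = 0.0256) from 5.12, 6.27 and 5.90 to 7.38, 7.88 and 7.34. It did not pass without CSN8fl/fl replicate 3 or any 1 CSN8ΔIEC array (adjusted p from 0.0649 to 0.0935; range over all alternatives 0.0101 to 0.0935). Khdc1a and Khdc1c, on the other side of Gsta3, differed by 0.93 and 0.54 (adjusted p = 0.0773 and 0.184). Both had an unadjusted p under 0.05. Over all genes 1.08% passed the threshold and 15% had an unadjusted p under 0.05.

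**Figure D3:**
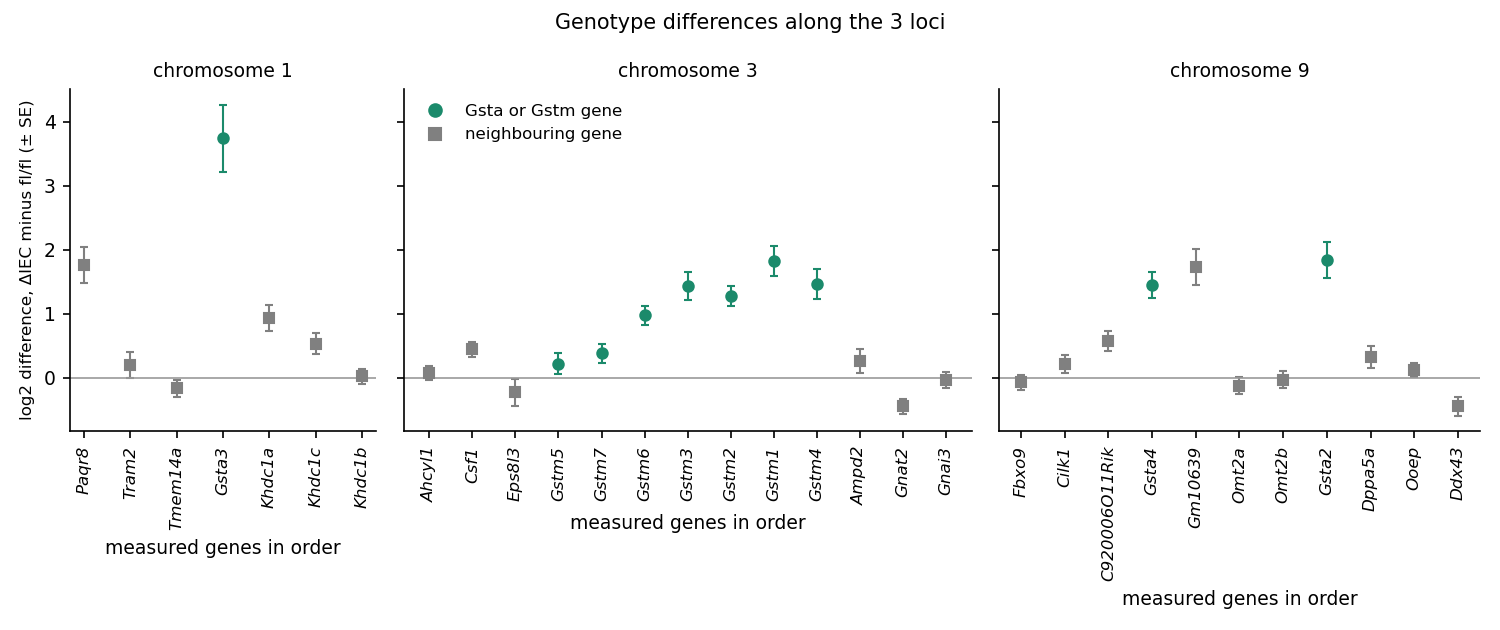
Log2 difference between genotypes ± SE (y axis) of the members (green circles) and of measured neighbours (grey squares), in RefSeq's gene order on chromosomes 1, 3 and 9 (x axis, order only). The mu class runs from 0.22 at Gstm5 to 1.83 at Gstm1, and the genes flanking its row lie between −0.45 and 0.45.

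The contrast between the labelled sex and age groups did not enter the choice of the genes and was tested for each of them. None of the 10 passed the threshold between replicate 3 (labelled male, 10 weeks) and replicates 1 and 2 (labelled female, 16 weeks) once genotype was in the model (limma, 0 of 10 at an adjusted p under 0.05 and 0 at an unadjusted p under 0.05; lowest adjusted p = 0.778). Over all genes 3, or 0.0154%, passed, all of them Y-linked, and 6.16% had an unadjusted p under 0.05. The widest differences were in Gsta3, at −0.98 ± 0.48, and Gsta4, at −0.38 ± 0.18, and Gsta2 and Gstm6 were at 0.0023 ± 0.32 and 0.012 ± 0.16. With 1 array labelled male per genotype, a difference of this kind had to be large to be detected.

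The interaction between genotype and labelled sex and age was not detected either (limma, 0 of 10 at an adjusted p or an unadjusted p under 0.05; adjusted p from 0.536 to 0.968), nor was it in any gene tested (0%, with 10.1% of genes at an unadjusted p under 0.05). The genotype difference of Gsta3 was 4.85 between the libraries labelled male and 3.19 between the means of those labelled female, an interaction of 1.67 ± 0.83. For Gsta2 these differences were 1.62 and 1.95, and for Gstm2 1.22 and 1.31. All 10 genes had a difference above 0 in both labelled groups. These groups are parts of the arrays whose genotype contrast drew attention to the family, so nothing is read from that count.

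The other glutathione S-transferases were mixed in direction, with 7 differences above 0 and 11 below. Of 18 genes of the pi, theta, omega, kappa, zeta, sigma and microsomal kinds and related proteins, 0 passed the threshold between genotypes (limma; 8 at an unadjusted p under 0.05), where 1.08% of all genes did and 15% of all genes had an unadjusted p under 0.05, and their median difference was −0.061. Among those that were higher, the nearest to it were Gstp2, a pi class gene, with 0.71 ± 0.14 (adjusted p = 0.051), Mgst1, a membrane-bound transferase, with 0.66 ± 0.14 (adjusted p = 0.0784; it passed with dim genes left out and with a trended, robust variance), and Gstp1 with 0.57 ± 0.14 (adjusted p = 0.113). All CSN8ΔIEC arrays lay above all controls in 4 of the 18 (these and Mgst2) and below them in 4 (Hpgds, Gstk1, Gstt1 and Gstt3), against 10.7% of all genes above and 22.4% not overlapping either way. Gstp2 was at 10.23, 10.55 and 10.53 in CSN8fl/fl and at 11.19, 11.01 and 11.25 in CSN8ΔIEC, and it passed with quantile normalization, median centring, array weights, a trended, robust variance or dim genes left out (range of adjusted p over all alternatives 0.0234 to 0.214). Hpgds, the sigma class transferase that makes prostaglandin D and is known from tuft and mast cells, went the other way, with −1.51 ± 0.35 (adjusted p = 0.0927). Its controls were at 6.26, 6.58 and 7.84 and its CSN8ΔIEC arrays at 5.34, 5.21 and 5.62, and it passed without CSN8fl/fl replicate 1 (−1.82, adjusted p = 0.0484), without CSN8fl/fl replicate 3 (−1.04, adjusted p = 0.0433) and with labelled sex and age as a covariate (adjusted p = 0.0227; range over all alternatives 0.0227 to 0.282). Differences between this list and the alpha and mu classes were not tested.

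**Figure D4:**
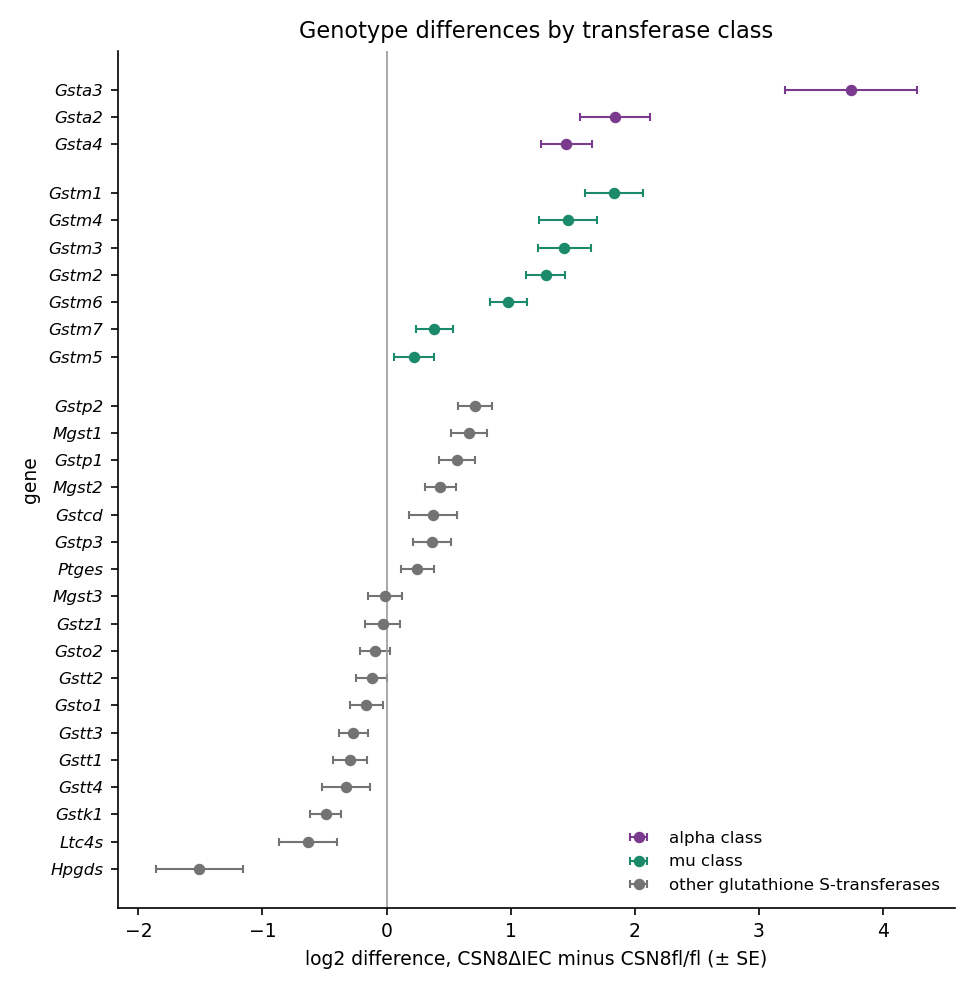
Log2 difference between genotypes ± SE (x axis) for the alpha class (purple), the mu class (green) and 18 other glutathione S-transferases (grey), ordered by size within each. Differences in the alpha and mu classes run from 0.22 to 3.74, and those of the other transferases from −1.51 to 0.71.

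Of 12 measured genes of glutathione supply and turnover, 1 rose and 0 fell, where 0.374% of all genes rose and 0.702% fell, and the median was 0.27. The list joins genes of synthesis with Chac1, Chac2, Ggct and Oplah, so its counts and median do not stand for more or less supply. Gclc, the catalytic subunit of glutamate-cysteine ligase, which limits the rate of glutathione synthesis, was at 9.56, 9.57 and 9.69 in CSN8fl/fl and at 11.27, 10.62 and 10.71 in CSN8ΔIEC. It rose 2.40-fold (1.26 ± 0.18, limma adjusted p = 0.0166), but did not pass without CSN8fl/fl replicate 2 (adjusted p = 0.0584; range over all alternatives 0.00632 to 0.0584). The modifier subunit Gclm differed by 0.57 ± 0.14 (adjusted p = 0.113), glutathione reductase, Gsr, by 0.58 ± 0.13 (adjusted p = 0.0829; it passed with dim genes left out and with a trended, robust variance) and glutathione synthetase, Gss, by 0.51 ± 0.13 (adjusted p = 0.123). All CSN8ΔIEC arrays lay above all controls in 5 of the 12 genes (these and Ggct) and below them in 3 (Cbs, Chac2 and Cth, with differences of −0.52, −0.30 and −0.26), against 10.7% of all genes above and 22.4% not overlapping either way.

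Of 21 measured genes of the mercapturate pathway, which trims glutathione conjugates, and of conjugate export, 2 rose and 0 fell (0.374% and 0.702% of all genes), with a median of 0.071. Both were exporters. Abcc3 was at 10.36, 10.44 and 10.20 in CSN8fl/fl and at 11.69, 11.19 and 11.52 in CSN8ΔIEC and rose 2.19-fold (1.13 ± 0.15, limma adjusted p = 0.0148). Abcc1, an exporter of glutathione conjugates, was at 7.68, 7.52 and 7.41 in CSN8fl/fl and at 8.46, 8.20 and 8.59 in CSN8ΔIEC and rose 1.84-fold (0.88 ± 0.14, adjusted p = 0.0261). The call of Abcc3 was lost when CSN8ΔIEC replicate 1 or 3 was left out (adjusted p = 0.0717 and 0.0545; range over all alternatives 0.00525 to 0.0717). That of Abcc1 was lost without either of these or CSN8fl/fl replicate 2 or 3 (adjusted p from 0.0665 to 0.127; range over all alternatives 0.0162 to 0.127). Abcc4 differed by 0.54 ± 0.16 (adjusted p = 0.159) and Dpep1, a dipeptidase of the pathway, by −0.63 ± 0.19 (adjusted p = 0.181). The exporter Abcc2 differed by 0.13 ± 0.19 (adjusted p = 0.792). Of the 21 genes 6 had an unadjusted p under 0.05, as did 15% of all genes. All CSN8ΔIEC arrays lay above all controls in 4 (Abcc1, Abcc3, Abcc4 and Dpep3) and below them in 4 (Dpep1, Nat8, Nat8f1 and Acy1). Over all genes these shares were 10.7% above and 22.4% not overlapping either way.

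NRF2 and the genes that regulate it showed no change that passed. Of 11 measured, 0 passed the threshold (limma; 1 at an unadjusted p under 0.05, as were 15% of all genes), with a median of −0.013. The genes with the smallest p were the NRF2 partner Mafg (0.43 ± 0.15, adjusted p = 0.239), Nfe2l1 (0.28 ± 0.13, adjusted p = 0.364), Maff (−0.46 ± 0.24, adjusted p = 0.413) and Mafk (−0.21 ± 0.13, adjusted p = 0.491). Nfe2l2, which encodes NRF2 itself, and Keap1 differed by 0.031 ± 0.14 and 0.15 ± 0.15 (adjusted p = 0.936 and 0.684). These are RNA signals, and NRF2 is known to be controlled mainly through the stability of its protein.

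Several markers of Paneth and tuft cells were lower in CSN8ΔIEC crypts. In bulk RNA, fewer cells of a type and less RNA per cell cannot be told apart. Of 12 Paneth cell markers 6 fell and 0 rose (0.702% and 0.374% of all genes), and their summed level, as the log2 of the summed linear signals, was 16.79 on all 3 control arrays and 15.07 to 16.05 in CSN8ΔIEC. Clps and Ang4, with differences of −3.11 and −1.84, had the smallest p (adjusted p = 0.00942 and 0.0087). Lyz1 overlapped between genotypes and did not pass (−0.51 ± 0.22, limma adjusted p = 0.324). Of 8 tuft cell markers 4 fell and 0 rose, with summed levels of 10.67 to 12.45 against 9.28 to 9.39 and the smallest p in Dclk1 and Rgs13 (−2.72 and −3.18, adjusted p = 0.0128 and 0.0176). Of 7 goblet cell markers 2 (Clca1 and Tff3) fell and 0 rose, 5 overlapped between genotypes and the median difference was −0.13, with summed levels of 15.75 to 15.93 against 15.45 to 15.59. With single arrays left out, the Paneth count ran from 2 (CSN8ΔIEC replicate 1 left out) to 8 (its replicate 3), the tuft count from 0 (CSN8ΔIEC replicate 1) to 5 (CSN8fl/fl replicate 1 or 3) and the goblet count from 0 to 1, the 1 being with CSN8fl/fl replicate 1 left out.

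Summed levels of the remaining cell type and tissue marker lists overlapped between genotypes, with immune cells as the exception. Of 16 villus enterocyte markers 0 passed (limma; 4 at an unadjusted p under 0.05, as were 15% of all genes), and their summed levels were 16.49 to 16.81 in CSN8fl/fl and 16.36 to 16.77 in CSN8ΔIEC. Without CSN8ΔIEC replicate 2, 1 of the 16 fell. Of 5 stem cell markers 0 passed (2 at an unadjusted p under 0.05; summed levels 10.71 to 11.17 against 10.90 to 11.31). Of 7 enteroendocrine markers 2 rose and 1 fell (11.47 to 11.55 against 11.37 to 11.74), and 1 rose in 5 of the 6 single-array omissions (all but that of CSN8ΔIEC replicate 2), with 0 falling without CSN8ΔIEC replicate 1 or 3. Of 11 stromal and muscle markers 1, Acta2, rose (9.66 to 9.91 against 9.86 to 10.66), a call lost in all 6 single-array omissions. Of 10 immune cell markers 0 passed (3 at an unadjusted p under 0.05; 12.83 to 13.22 against 11.98 to 12.63). Genotypes overlapped in 6 of the 10, with 3 lower in CSN8ΔIEC and 1, Jchain, higher (1.51), where 22.4% of all genes did not overlap. Lyz2 had the highest mean of the list in both genotypes (12.63 and 11.90) and weighs most in the sum, so the sum does not stand for immune cells as a whole. Without CSN8fl/fl replicate 3, 1 immune marker fell. Of 7 pancreas and liver markers 0 passed (1 at an unadjusted p under 0.05; 8.88 to 8.98 against 8.77 to 9.11). Of 7 genes of the proximal intestine 1, Cybrd1, fell (−1.13 ± 0.17, limma adjusted p = 0.0194), and 3 were at an unadjusted p under 0.05. Onecut2 of that list went the other way without passing (1.09 ± 0.22, adjusted p = 0.0576). Of 7 genes of the distal intestine 0 passed (1 at an unadjusted p under 0.05). Detection of single markers was not tested. The 40th percentile of all genes lay at 6.08, and 5 of the 11 stromal and muscle markers and 3 of the 7 pancreas and liver markers reached it. Acta2 lay below it, with means of 5.19 in CSN8fl/fl and 5.85 in CSN8ΔIEC. The summed level of the 10 transferases was 12.67 to 13.51 in CSN8fl/fl and 14.58 to 14.88 in CSN8ΔIEC. The part of the marker differences in the transferase differences was not tested.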

How the data were processed

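Per the submitters' processing notes, the authors used RMA and Partek 6.6; the deposited table gives log2 signals per probe set for 6 arrays. The settings and genome build were not given in the sources used here. The table held 22206 probe sets, 19572 with 1 symbol, 0 with several and 2634 unnamed here; for 55 genes with several, the probe set with the highest mean was used, which left 19505 genes. Genotypes were compared with limma 3.58.1 (lmFit and eBayes) in R 4.3.3, with Benjamini-Hochberg adjustment over all genes and a threshold of 0.05; 2 further models added labelled sex and age, and their interaction with genotype. The fit was tested on simulated data. Tests are two-sided. Members and lists were chosen with earlier results of these data known. The rule for named genes took all members, Cops8, the Y-linked genes, list members past the threshold or up to 4 by smallest p (2 for cell types), and the 3 nearest profiles of Gsta3 and of Gstm1; genes beyond it were chosen after their values were seen. Alternatives were another scaling, a filter, other variance models, covariates and leaving out each array; those for Gm10639, Paqr8 and the cell type counts were added after seeing the data. Same-numbered replicates were not paired: their deviations correlated at 0.12, −0.024 and 0.038. List genes with no named probe set were not analysed here.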

Additional observations from a re-analysis of the deposited data

How the results depend on the processing

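The median difference of the 10 transferases stayed between 1.26 and 1.60 over 14 alternatives. The number past the threshold was 7 with the replicate number as a block (without Gstm6) and 7 with a trended, robust variance (without Gsta3), and ranged from 1 to 8 when single arrays were left out. Among the other glutathione S-transferases, 1 passed with quantile normalization, with arrays centred on their medians, with array weights, with labelled sex and age as a covariate or with the replicate block (Hpgds, limma adjusted p = 0.038), 2 with dim genes filtered out or with the trended, robust variance, and 0 to 1 without single arrays. Of the glutathione supply and turnover genes 2 passed with dim genes filtered out or with the trended, robust variance, and 0 to 1 without single arrays, and of the mercapturate and export genes 0 to 2 without single arrays. The NRF2 regulators, the labelled sex and age contrast and the interaction kept a count of 0 in every alternative run. Same-numbered replicates share a number and, as replicate 3 against 1 and 2, the labelled sex and age, but were not paired, and the block gave 202 calls over all genes against 210. The cause of the moved counts was not tested, except that the filter tests fewer genes (11703) and each omission uses fewer samples. Arrays carry no read depth, and their number limits what could be detected.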
